A study of Mus musculus with 16 samples.

Results

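DNase-seq peaks of male mouse liver were compared 27 h after a single injection of TCPOBOP or of vehicle, in the experiment whose peak names carry the code G115. The comparison rests on 4 of the 16 liver pools of the series, which were chosen by those peak names. The 2 TCPOBOP pools came from male CD-1 mice, 7 weeks old, given 3 mg/kg TCPOBOP intraperitoneally, and the 2 vehicle pools from males of the same strain and age given 1% DMSO in corn oil. Each pool combined liver DNA of 3 to 5 mice. The remaining 12 pools belong to 3 other experiments of the same layout (1 of females at 27 h, and 1 of each sex at 3 h), so that sex, time and experiment cannot be told apart. The pools of a group are numbered 1 and 2, and nothing in the labels ties pool 1 of TCPOBOP to pool 1 of vehicle. P-values set a change against the spread between the pools of a group, which was estimated jointly from all 16 pools.

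DNase I cuts DNA most readily where nucleosomes are displaced, so that clusters of released fragments mark accessible regulatory DNA such as promoters, enhancers and insulators. TCPOBOP is a synthetic agonist of the constitutive androstane receptor (CAR, gene Nr1i3), a nuclear receptor of hepatocytes. Active CAR moves to the nucleus, binds DNA as a partner of the retinoid X receptor and induces drug-metabolising genes, of which Cyp2b10 is the classical mouse target, and in mouse liver prolonged activation is also followed by hepatocyte growth. The deposited coordinates are those of the mouse build mm9, and no genome or annotation of that build was used here. Regions are therefore given by position, with no gene assigned and no sequence shown. For the same reason the liver label was not checked against marker genes. In whole liver, a change in the share of cells of a type and a change in accessibility within cells cannot be told apart.

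Sequencing depth was 28633652 and 36187819 tags for the TCPOBOP pools, and 35822318 and 43618254 tags for the vehicle pools. Peaks numbered 39211 and 46281 in the TCPOBOP pools and 42622 and 44404 in the vehicle pools. They covered 22.4 and 27.7 Mb after TCPOBOP and 24.6 and 26.7 Mb after vehicle. Each of the 4 lists held 78 to 85 peaks on chromosome Y, where each female list held 1, as the sex label requires. Peaks of all 16 lists that overlapped were merged into 61240 regions, of which 51164 autosomal ones held a peak in at least 1 of the 4 pools. All 4 pools had a peak in 31224 of these, the regions that were tested. The level of a region is the highest summit pileup of its peaks in a pool (the number of extended tags over the peak's summit) per 1000000 tags, divided by a factor that sets the median over common regions equal in all libraries; it is called normalised pileup below. Across the tested regions, log2 normalised pileup correlated at 0.963 between the vehicle pools, at 0.963 between the TCPOBOP pools and at 0.935 to 0.941 between a TCPOBOP and a vehicle pool, as a description across regions that share their libraries. The log2 difference between the pools of a group had a standard deviation over regions of 0.315 for vehicle and 0.324 for TCPOBOP.

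More regions were called higher in DNase signal after TCPOBOP than were called lower, in each of the settings tried. In limma's test, with an adjusted p under 0.05 over all tested regions, 550 regions were higher after TCPOBOP (1.76% of those tested) and 126 were lower (0.404%). Without adjustment, p was under 0.05 at 1986 regions above and 1457 below. The higher regions had a median log2 change of 1.11 (2.15-fold), with quartiles of 0.92 and 1.38. Of them 368 changed by more than 2-fold and 24 by more than 4-fold, up to log2 3.31. The lower regions had a median of −1.03 and reached −1.64, and 69 changed by more than 2-fold and 0 by more than 4-fold. The median over all tested regions was −0.01. Both TCPOBOP pools lay above both vehicle pools at 21.3% of all tested regions and below both at 21.2%, so the lack of overlap alone says little about a region with 2 pools per group. Higher regions made up 81.4% of the calls, and 93.4% without median centring, where the median change of all regions was 0.11 and 663 regions were higher and 47 lower. With fold enrichment, the authors' ratio of pileup to a local background, in place of pileup, only 56 regions were called higher and 8 lower. Of the 126 lower regions 5 were among those 8.

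**Figure D1:**
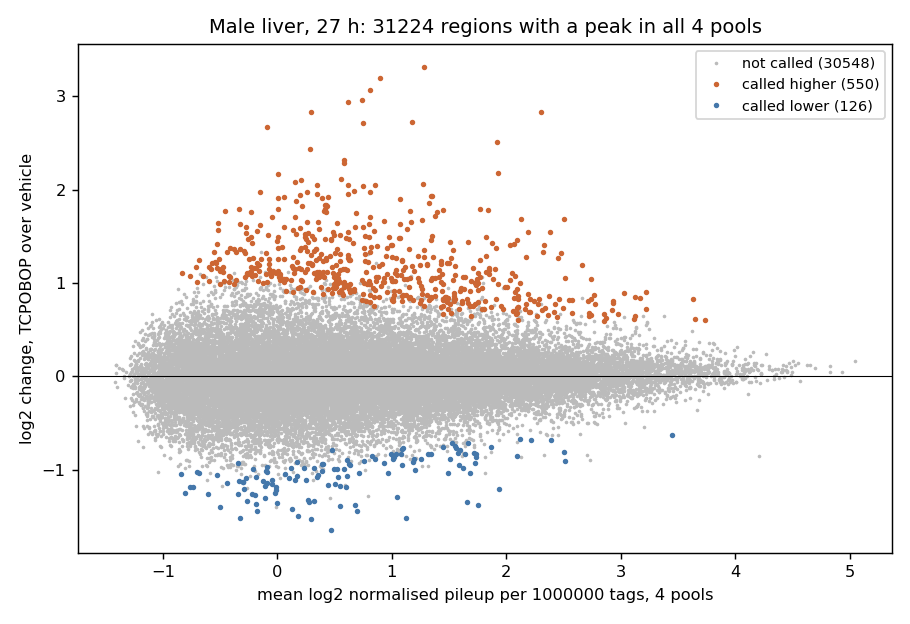
Log2 change in normalised pileup (TCPOBOP over vehicle, vertical axis) against mean log2 normalised pileup per 1000000 tags over the 4 male 27 h pools (horizontal axis), with 1 point for each of 31224 regions. The 550 regions called higher reach 3.31, the 126 called lower reach −1.64, and the strongest regions lie near 0.

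Every tested region held a peak in vehicle by definition, and at the higher regions that peak was of modest height. Their median normalised pileup was 1.17 in vehicle and 2.80 after TCPOBOP, against 1.59 and 1.60 over all tested regions. The lower regions started from 2.11 and fell to 0.982. The vehicle level is part of the change that made the calls, so these medians are partly set by the selection. When the tested regions were divided by mean level into 3 parts of equal size, higher regions made up 1.01% of the weakest part, 2.34% of the middle part and 1.93% of the strongest. The corresponding shares of lower regions were 0.404, 0.509 and 0.298%. On single autosomes, higher regions made up between 1.17% (chromosome 2) and 2.53% (chromosome 19) of those tested.

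The peaks also changed in width, a measure that the call did not use but that grows with peak height. At the higher regions the median peak width was 546 bp in vehicle and 708 bp after TCPOBOP, and 501 of the 550 had wider peaks after TCPOBOP (91.1%, against 43.8% of all tested regions). At the lower regions it was 657 bp in vehicle and 526 bp after TCPOBOP, and 11 of 126 had wider peaks (8.73%). At the higher regions the median distance between TCPOBOP and vehicle summits was 42.8 bp, and between summits of the 2 pools of a group 36.8 bp. At the lower regions these distances were 56.3 and 49.5 bp, and over all tested regions 39.0 and 37.5 bp, with no test made of them.

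The higher region of lowest p was at chromosome 5, 129084925 to 129086402. Normalised pileup there was 0.560 and 0.680 in the vehicle pools and 5.99 and 5.33 in the TCPOBOP pools (log2 3.19 ± 0.22, SE, limma adjusted p = 9.13e-10). The TCPOBOP pools agreed within a small part of the gap to vehicle, and the median peak width went from 412 to 732 bp. At chromosome 7, 26681892 to 26682863, the vehicle pools were at 0.586 and 1.02 and the TCPOBOP pools at 7.51 and 7.86, the largest fold among the tested regions (9.94-fold, log2 3.31 ± 0.23, limma adjusted p = 9.42e-10). Chromosome 18, 68650572 to 68651869 reached the highest level of the 15 higher regions of lowest p. Its vehicle pools were at 2.04 and 1.68 and its TCPOBOP pools at 11.2 and 15.6 (log2 2.84 ± 0.21, limma adjusted p = 9.42e-10). In the authors' fold enrichment its change was log2 0.39 and was not called (limma adjusted p = 0.354).

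A pair of neighbouring regions on chromosome 10 rose together. At 80420505 to 80421154 the vehicle pools were at 1.40 and 1.79 and the TCPOBOP pools at 8.49 and 9.57 (log2 2.51 ± 0.19, limma adjusted p = 2.57e-09). At 80421722 to 80422333 the values were 2.60 and 2.30 in vehicle and 7.65 and 8.02 after TCPOBOP (log2 1.68 ± 0.17, limma adjusted p = 1.73e-07). No TCPOBOP pool came near a vehicle pool at either region.

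Several of the 15 were near the lower end of the tested levels in vehicle. Chromosome 19, 27438747 to 27439785 was at 0.433 and 0.489 in vehicle and at 2.67 and 4.04 after TCPOBOP. Chromosome 4, 117004869 to 117005675 was at 0.484 and 0.638 in vehicle and at 3.82 and 4.71 after TCPOBOP. Chromosome 5, 20095389 to 20096603 was at 0.407 and 0.871 in vehicle and at 5.01 and 4.33 after TCPOBOP. The vehicle pools of the last region differed more, on the log2 scale, than those of the other 14 regions, and both lay far below the TCPOBOP pools. The others by position were chromosome 4, 24547230 to 24548340 (6.56-fold), chromosome 16, 44270558 to 44271727 (8.38-fold), chromosome 9, 98318409 to 98319244 (6.60-fold), chromosome 6, 108415903 to 108416882 (3.73-fold) and chromosome 19, 39356867 to 39357740 (4.33-fold), beside the remaining members of the chromosome 7 stretch described below.

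Among the lower regions, chromosome 16, 31651669 to 31652628 had the lowest p. Normalised pileup there was 4.84 and 5.21 in the vehicle pools and 2.17 and 1.82 in the TCPOBOP pools (log2 −1.34 ± 0.18, limma adjusted p = 2.58e-05). Chromosome 5, 140580640 to 140581426 was at 6.37 and 5.31 in vehicle and 2.44 and 2.59 after TCPOBOP (log2 −1.21 ± 0.19, limma adjusted p = 0.000232). A tested region holds a peak in all 4 pools by definition, so that regions with no peak called after TCPOBOP are counted under peak presence below. Such regions have no level after TCPOBOP, so a missing peak need not be a complete loss of signal. Chromosome 17, 56347380 to 56348678 went from 5.98 and 4.95 to 2.10 and 2.08 (log2 −1.38 ± 0.26, limma adjusted p = 0.00232), and its median peak width from 1190 to 460 bp. Chromosome 14, 51725502 to 51726731 had the largest decrease of the 10 lower regions of lowest p, from 2.65 and 1.64 to 0.947 and 0.551 (log2 −1.53 ± 0.28, limma adjusted p = 0.00173). Its groups did not overlap, but its vehicle pools differed more from each other, in ratio, than those of the other 9. The others lay at chromosome 2, 7181655 to 7182381 (2.63-fold lower) and 172406073 to 172406712 (2.52-fold lower), chromosome 8, 42079220 to 42079984 (2.72-fold lower), chromosome 18, 21530798 to 21532456 (2.44-fold lower), chromosome 13, 102119110 to 102119940 (2.05-fold lower) and chromosome 19, 21103317 to 21104508 (2.61-fold lower). The 15 higher regions stayed called whichever single pool was left out, but 7 of the 10 lower ones (on chromosomes 2, 8, 14, 18, 17, 13 and 19, the one at 172406073 excepted) missed the threshold without at least 1 pool. In the authors' fold enrichment 10 of the 15 and 1 of the 10 (chromosome 5) were called. The 5 higher regions that were not called there began at chromosome 18, 68650572, chromosome 10, 80421722, chromosome 19, 39356867 and chromosome 7, 26672712 and 26679889.

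**Figure D2:**
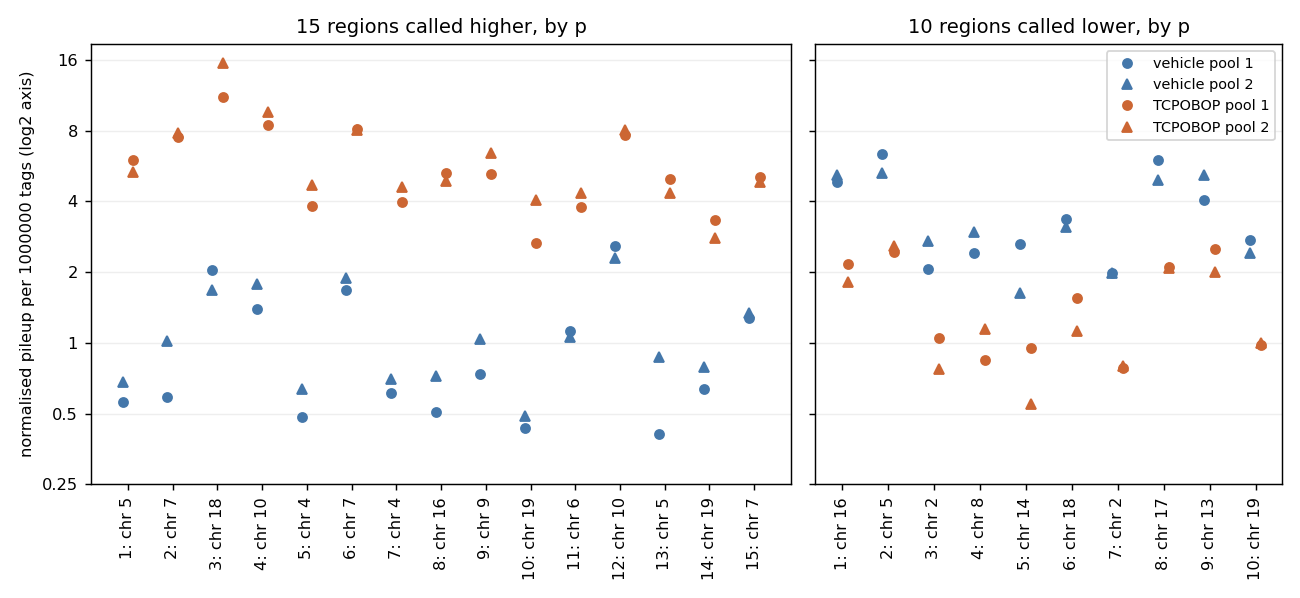
Normalised pileup per 1000000 tags (vertical axis, log2 scale) in each of the 4 male 27 h pools at the 15 regions called higher (left) and the 10 called lower (right) of lowest p, labelled by rank and chromosome. Circles are pools 1 and triangles pools 2; at each of these regions both TCPOBOP points lie on the same side of both vehicle points.

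Regions at the threshold differed less. Just inside it, chromosome 11, 67328684 to 67330622 was at 3.21 and 3.32 in vehicle and 5.11 and 5.53 after TCPOBOP (1.63-fold). Just outside it, chromosome 5, 146692443 to 146693309 was at 2.78 and 3.08 in vehicle and 5.11 and 4.12 after TCPOBOP (1.57-fold). The 5 regions of highest mean signal showed no change that passed the test, with log2 changes of 0.05 to 0.16. The strongest of them, chromosome 16, 42874983 to 42876421, was at 27.6 and 35.6 in vehicle and 35.2 and 34.9 after TCPOBOP (log2 0.16 ± 0.17, limma adjusted p = 0.883).

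Regions called higher lay near one another. Of the 550, 198 (36.0%) had another higher region within 50 kb, against 4.42% of the 30548 regions not called. Of the 126 lower regions 17 (13.5%) had another lower region within 50 kb, against 1.26% of those not called. A higher and a lower region lay that close in 1 case. When higher regions under 50 kb apart were joined, 352 stood alone and 198 fell into 79 stretches, of which 24 held at least 3 regions. The share of higher regions with such a neighbour was 27.4 to 33.8% when 1 pool was left out, against 1.72 to 2.35% of the regions not called. It was 7.14% (4 of 56 regions), against 0.44% of the regions not called, when the authors' fold enrichment was used in place of pileup. Fold enrichment is relative to a background taken from the surrounding tags of that pool.

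The 2 stretches with the most members held 6 regions each. On chromosome 5, 136118620 to 136173965, 6 of 8 tested regions were higher, by log2 0.72 to 1.98. Its member at 136158349 to 136159308 was at 0.968 and 0.808 in vehicle and 3.52 and 3.45 after TCPOBOP (limma adjusted p = 3.30e-07). The strongest site of the stretch, 136164258 to 136165504, was at 21.7 and 20.3 in vehicle and 22.1 and 23.3 after TCPOBOP (limma adjusted p = 0.909). Beside it, 136166163 to 136166669 had a peak in both vehicle pools, with 149 and 139 tags at the summit. No peak was called there in either TCPOBOP pool, so its level after TCPOBOP is not known. Weaker sites on both sides of these were among the 6 called. On chromosome 16, 93311791 to 93370426, 6 of 6 tested regions were higher, by log2 0.82 to 1.47. There the calls were less secure, since 1 of the 6, at 93342070 to 93343277 (vehicle 0.840 and 1.11, TCPOBOP 2.57 and 2.61), stayed called without any single pool.

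A stretch on chromosome 7, 105495896 to 105541639, had 5 of 7 tested regions higher, by log2 0.86 to 1.21. Its first region, 105495896 to 105496844, was at 1.96 and 1.76 in vehicle and 4.43 and 4.18 after TCPOBOP. A stretch on chromosome 6, 108398124 to 108457306, had 4 of 8 higher. The region at 108415903 to 108416882 was at 1.12 and 1.06 in vehicle and 3.79 and 4.37 after TCPOBOP (limma adjusted p = 9.59e-08). In the same stretch 108406786 to 108407344 was at 2.16 and 2.00 in vehicle and 2.47 and 1.71 after TCPOBOP (log2 −0.02 ± 0.24, limma adjusted p = 0.997), although the next tested region, 108408106 to 108409162, was at 2.55 and 1.21 in vehicle and 4.47 and 3.86 after TCPOBOP (log2 1.24 ± 0.26, limma adjusted p = 0.00545). The latter missed the threshold when some single pools were left out, with adjusted p up to 0.327.

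The shortest of the 5 stretches, on chromosome 7 from 26672712 to 26682863, had 4 of 4 tested regions higher within 10.2 kb. At 26672712 to 26673610 the vehicle pools were at 1.68 and 1.89 and the TCPOBOP pools at 8.12 and 8.06 (log2 2.18 ± 0.18, limma adjusted p = 5.74e-09). At 26679889 to 26680779 they were at 1.27 and 1.34 and at 5.11 and 4.84 (log2 1.93 ± 0.19, limma adjusted p = 2.15e-07). The weakest change was at 26674300 to 26675132, from 1.88 and 2.34 to 3.72 and 3.78 (log2 0.84 ± 0.20, limma adjusted p = 0.0194), and without 1 pool its adjusted p ran from 0.0441 to 0.309. Between these lay 26676827 to 26677554, which had no peak in vehicle and 5.03 and 7.66 tags per 1000000 (before centring) at the summit in the TCPOBOP pools. At 26678219 to 26678518, vehicle pool 1 had no peak, vehicle pool 2 had 1.42 and the TCPOBOP pools had 4.54 and 5.06 on the same scale. In fold enrichment, 26674300 to 26675132 was lower after TCPOBOP (log2 −1.43, limma adjusted p = 0.000771), while 26681892 to 26682863 stayed higher (log2 1.06, limma adjusted p = 0.0312). Of the 25 called regions of the 5 stretches, 3 were called higher in fold enrichment.

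**Figure D3:**
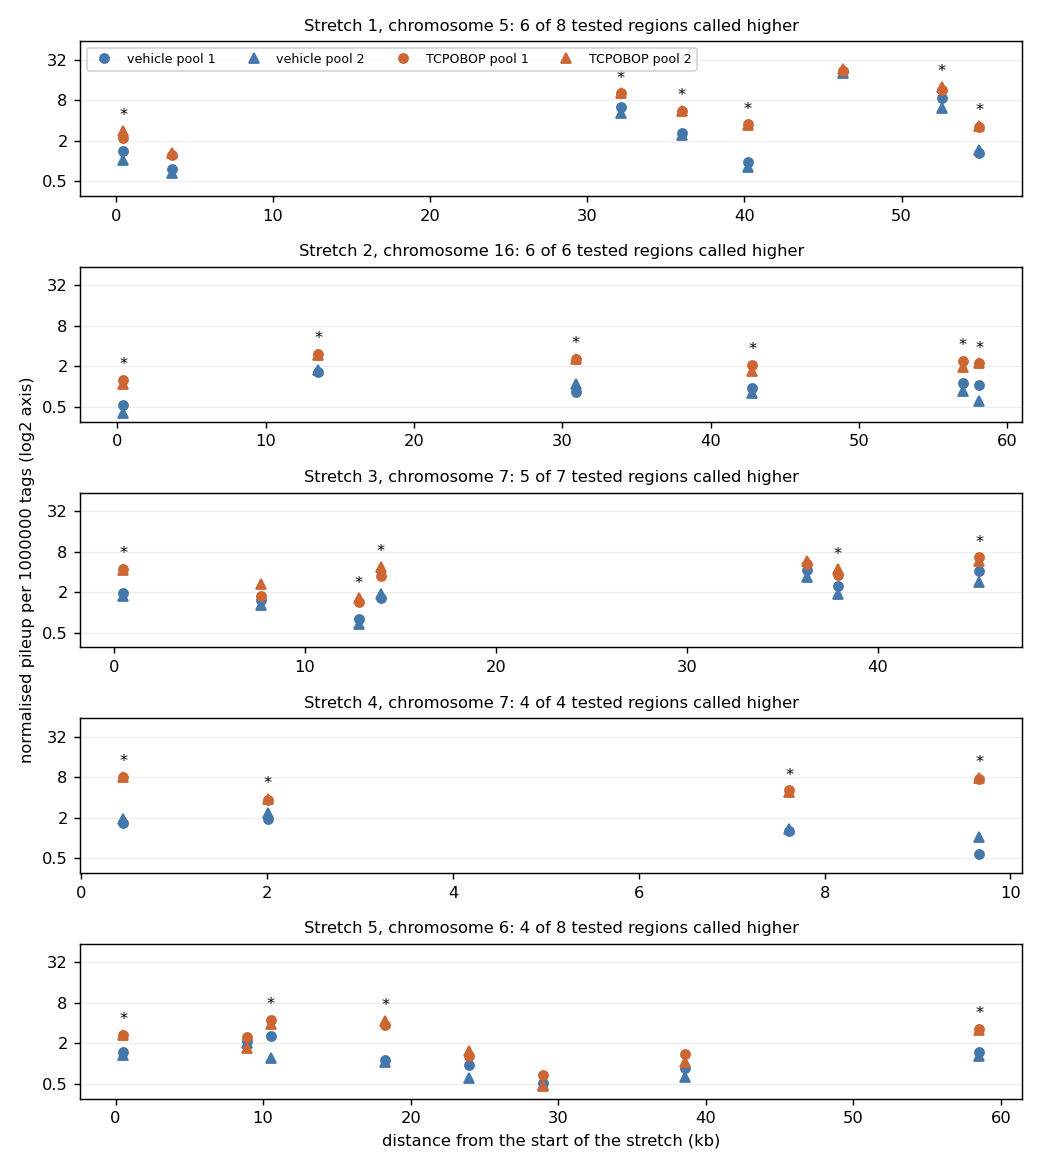
Normalised pileup per 1000000 tags (vertical axis, log2 scale) in the 4 male 27 h pools at every tested region of the 5 stretches with most regions called higher, by distance in kb from the start of each stretch. An asterisk marks a region called higher; in stretch 1 the strongest site, at 20.3 to 23.3 in all 4 pools, is not called, while 6 of its neighbours are.

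Peak presence, which also covers regions with no value in one group, gave a balanced picture. A peak was present in both TCPOBOP pools and neither vehicle pool at 1134 regions (gained, 2.22% of the 51164) and in both vehicle pools and neither TCPOBOP pool at 1193 (lost, 2.33%). Regions with a peak in 1 pool alone numbered 9295, that is 4634 in a TCPOBOP pool and 4661 in a vehicle pool. A peak in 3 pools was missing from a TCPOBOP pool at 3443 regions and from a vehicle pool at 1797. Most of the 3443 lacked the peak in TCPOBOP pool 1, and most of the 4634 held it in TCPOBOP pool 2. TCPOBOP pool 1 was the shallower, with 28633652 tags against 36187819 in TCPOBOP pool 2. With lists of equal length (38350 peaks), gained regions numbered 1203 and lost regions 1166. The part of depth in the counts by pool was not tested. No test was made of these counts, since 2 pools against 2 cannot give an exact two-sided p below 0.333.

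**Figure D4:**
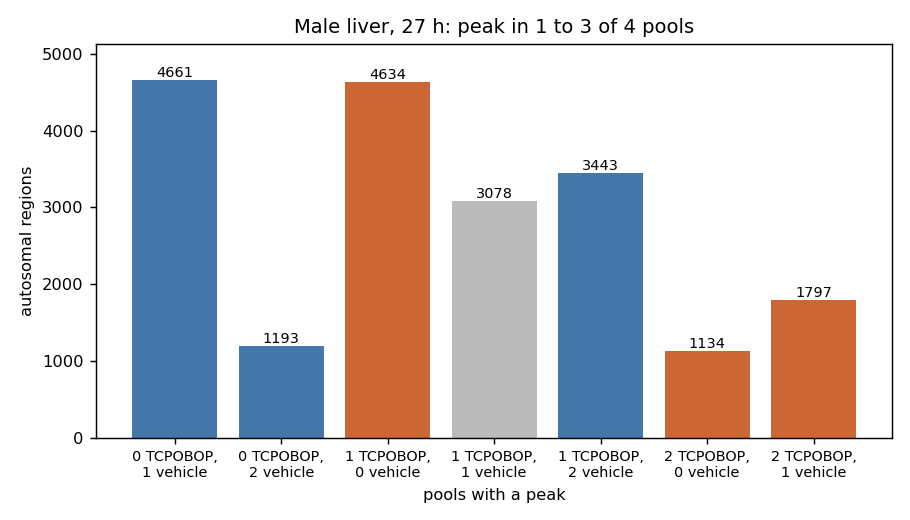
Number of autosomal regions (vertical axis) by the number of TCPOBOP and vehicle pools that held a peak, for regions at which 1 to 3 of the 4 male 27 h pools held one. Orange bars have more TCPOBOP pools and blue bars more vehicle pools with a peak; gained (1134) and lost (1193) regions are the smallest bars.

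Gained and lost regions were mostly weak. The median summit pileup of gained regions was 20 and 28 tags in the TCPOBOP pools and that of lost regions 22 and 25 tags in the vehicle pools, against 48 to 77 tags at regions with a peak in all 4 pools. The balance depended on strength. Among the 20000 strongest peaks of each list, 67 regions were gained and 2 lost. When a pool was left out, presence or absence of a peak in its group rested on the 1 remaining pool. That loosens the rule for both gained and lost regions but not to the same extent, so these counts do not show the balance under the same rule. Leaving out TCPOBOP pool 1, the shallowest library, gave 4830 gained and 1651 lost, and leaving out TCPOBOP pool 2 gave 2072 and 4178. Without vehicle pool 1 the counts were 1829 and 3973, and without vehicle pool 2 they were 2236 and 3074.

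A larger share of the gained than of the lost regions lay near a region of higher signal, as counts with no test. Within 10 kb of a region called higher lay 61 of the gained regions (5.38%) and 17 of the lost ones (1.43%), against 1.15% of the regions with a peak in all 4 pools that were not called. Within 50 kb these shares were 14.6, 3.44 and 4.42%. No gained region and 9 lost regions (0.754%) lay within 10 kb of a region called lower, against 0.321% of the uncalled regions with a peak in all 4 pools.

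Of the 1134 gained regions, 342 were gained in females at 27 h as well (30.2%, against 6% of the regions with a peak in that experiment), 112 in males at 3 h (9.88%, against 4.94%) and 131 in females at 3 h (11.6%, against 4.04%). Of the 1193 lost regions, 53 were lost in females at 27 h (4.44%, against 1.26%), 11 in males at 3 h (0.922%, against 0.472%) and 14 in females at 3 h (1.17%, against 1.01%). Of the same lost regions, 30 were gained in the female 27 h experiment (2.51%, against 6%). In the male 3 h one 51 were gained (4.27%, against 4.94%), and in the female 3 h one 26 (2.18%, against 4.04%). At 3 h more of them were gained than lost, but this held for all regions as well. There 1980 were gained and 189 lost in males, and 1496 and 374 in females. The male 3 h vehicle pools had 15679689 and 17206999 tags, against 25383943 and 18543171 for TCPOBOP. The female 3 h vehicle pools had 16948011 and 16216180, against 20704920 and 19948773. In females at 27 h the vehicle pools had 28624325 and 18044366, against 25065722 and 30340709. The part of depth in the gained and lost counts was not tested. Of the gained regions 6, 3 and 2 were lost in the female 27 h, male 3 h and female 3 h experiments. These shares are counts with no test, and the 2 shares of a pair have unlike bases. The first is over all gained or all lost regions, including those with no peak in any pool of that experiment. Such regions made up 33.2% of the gained and 44.9% of the lost ones in females at 27 h. They made up 54.3 and 55.4% in males at 3 h, and 62.1 and 64.7% in females at 3 h. Over regions with a peak there, the first shares would be larger. The 342 are 12.4% of the 2764 regions gained in females, and the 53 are 9.12% of the 581 lost.

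The gained region of highest −log10 q in both pools was chromosome 19, 33153100 to 33154028, with summit pileups of 185 and 274 tags and the authors' fold enrichments of 11.7 and 12.8. Peaks were present there in both vehicle pools of each 3 h experiment, and in 1 TCPOBOP and 1 vehicle pool of females at 27 h. It was thus gained in none of the other 3 experiments. Chromosome 12, 14216227 to 14217372 had pileups of 109 and 219 tags and folds of 13.0 and 15.5. Its pattern was the same in the other 3 experiments, with a peak in both TCPOBOP pools and neither vehicle pool of each. The same held for chromosome 4, 19237874 to 19239234 (79 and 163 tags) and chromosome 16, 14059190 to 14059873 (87 and 118 tags). Chromosome 14, 20954198 to 20955082 (129 and 247 tags), chromosome 18, 51620914 to 51622185 (143 and 220 tags), chromosome 17, 79037702 to 79038835 (4.02 and 5.55 tags per 1000000) and chromosome 18, 33553385 to 33554643 (67 and 120 tags) were gained in females at 27 h too.

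The lost regions of highest −log10 q had lower folds. Chromosome 11, 79097202 to 79097462 had 125 and 140 tags in the vehicle pools at folds of 3.68 and 3.18, and in females at 27 h its peak was in both TCPOBOP pools and in 1 vehicle pool. Chromosome 9, 106138375 to 106138863 had 77 and 78 tags at folds of 3.82 and 5.36. It was lost in each of the other 3 experiments as well. Chromosome 19, 55169919 to 55170433 (61 and 64 tags) and chromosome 2, 174374168 to 174374688 (40 and 42 tags) did not repeat as lost elsewhere.

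The regions called in males at 27 h were then looked up in the experiments that were not used to call them. These share no pools with the male 27 h experiment, but share its estimate of the spread per region. Of the 366 higher regions that could be tested in females at 27 h, 361 also had a positive change (98.6%, against 45.9% of all regions tested in both) and 286 were called higher there (78.1%, against 3.89%). Their median log2 change was 1.08 in females and 1.04 in males. Those 286 were 31.0% of the 924 regions called higher in females among the regions tested in both. Of 91 lower regions, 87 had a negative change in females (95.6%, against 54.1%) and 47 were called lower (51.7%, against 2.55%). The median in females was −0.82. Opposite calls numbered 0. In fold enrichment, 4 of 22 higher and 2 of 5 lower male calls tested in both were shared with females. Females had only 30 higher and 19 lower calls there, among 23741 regions tested in both. The change in females had the same direction at 21 of the 22 and at 5 of the 5. The share of all regions with that direction was not counted in fold enrichment.

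At 3 h the higher regions had positive but smaller medians, and the lower regions had medians near −0.2. In males at 3 h, 323 of 349 higher regions had a positive change (92.6%, against 46.3%), 83 were called (23.8%, against 0.718%) and the median was 0.51. In females at 3 h, 342 of 359 were positive (95.3%, against 51.1%), 147 were called (40.9%, against 1.33%) and the median was 0.73. Of the lower regions 72 of 103 were negative in males at 3 h (69.9%, against 53.7%) and 71 of 100 in females at 3 h (71.0%, against 48.9%), with medians of −0.21 and −0.20, and 2 and 1 were called (1.94 and 1.00%, against 0.151 and 0.0789%). A further 64 of the 550 higher regions held a peak in both TCPOBOP pools and no vehicle pool of the male 3 h experiment. Over all regions with a peak there, 1980 of 40071 did (4.94%). In females at 27 h 84 of the 550 did, against 2764 of 46049 (6%).

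**Figure D5:**
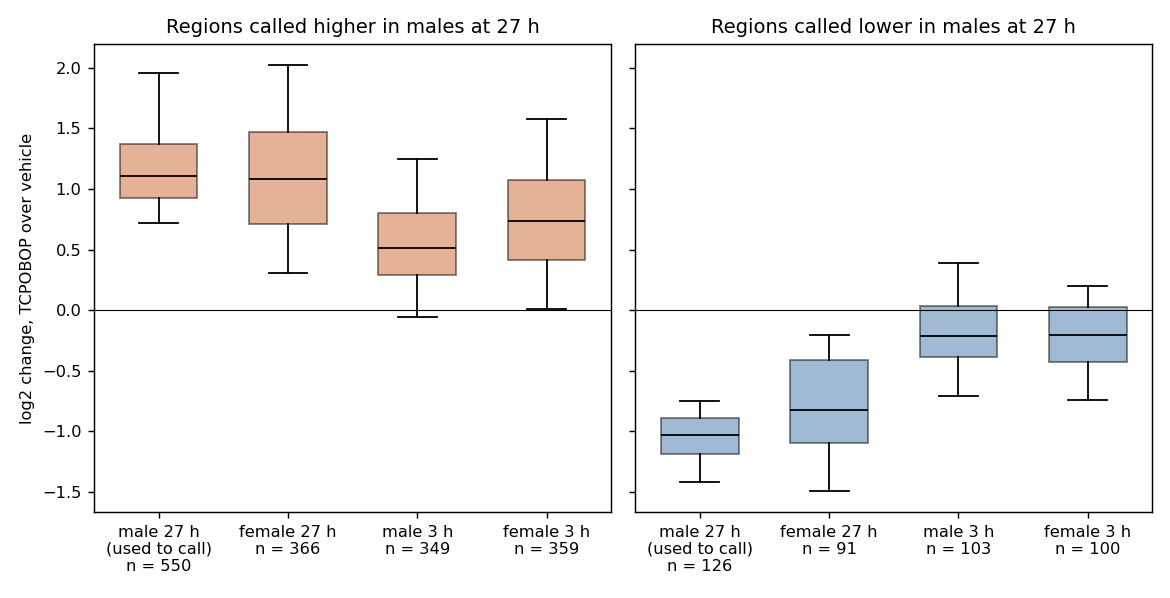
Log2 change in normalised pileup (vertical axis) in each of the 4 experiments at the regions called higher (left) and lower (right) in males at 27 h, with the number of regions tested below each box. Boxes span the quartiles with the median as a line and whiskers the 5th to 95th percentiles; the first box of each panel was used for the calls, and the median of the lower regions is −0.82 in females at 27 h but −0.21 and −0.20 at 3 h.

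Regions picked by a call tend to have an overstated change in the experiment that made the call, so the male times were also compared at regions called in females, where 3.8% of regions were higher and 2.57% lower at 27 h and 1.32% higher at 3 h. At 776 regions called higher in females at 27 h and tested in males at both times, the median log2 change in males was 0.52 at 27 h and 0.25 at 3 h, and 593 changed further at 27 h (76.4%, against 52.4% of all 21861 regions tested at both times). At 252 regions called higher in females at 3 h, the medians were 0.72 and 0.58, and 168 changed further at 27 h (66.7%). At 535 regions called lower in females at 27 h, the medians were −0.35 at 27 h and −0.04 at 3 h, and 444 were further down at 27 h (83.0%, against 47.6%). The male 3 h libraries were shallower, with 15679689 to 25383943 tags. The part of depth in these differences was not tested.

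Few single regions passed limma's test of a difference between the male 27 h response and that of another experiment. With 2 pools per group, a region that did not pass is not thereby shown to respond alike. The difference from females at 27 h passed limma's test at 2 of 23741 regions (0.00842%; 1164 at an unadjusted p under 0.05), both on chromosome 12. At 63870068 to 63871129 the male pools were at 5.63 and 4.87 in vehicle and 8.22 and 6.43 after TCPOBOP, and the female pools at 1.41 and 0.972 and at 7.68 and 7.21. At 64118600 to 64119481 the male pools were at 6.29 and 4.02 in vehicle and 1.76 and 3.43 after TCPOBOP, and the female ones at 1.12 and 2.63 and at 7.79 and 6.91. At the first region the TCPOBOP levels of the experiments were alike in range and the vehicle levels were not. The male minus female differences were log2 −2.19 ± 0.26 and −3.13 ± 0.49 (limma adjusted p = 0.000114 and 0.00679). Without TCPOBOP pool 1, and likewise without vehicle pool 1, 1 of these 2 regions passed, and neither did in fold enrichment.

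The difference from males at 3 h passed at 8 of 21861 regions (0.0366%; 1713 at an unadjusted p under 0.05), 4 further up and 4 further down at 27 h. Chromosome 5, 129084925 to 129086402 rose by log2 1.23 ± 0.22 at 3 h and by 3.19 at 27 h (difference 1.96 ± 0.31, limma adjusted p = 0.0224). Chromosome 8, 124241810 to 124242819 changed by 0.05 ± 0.23 at 3 h and by 1.86 ± 0.23 at 27 h, from 1.38 and 1.25 in vehicle to 4.40 and 5.18 after TCPOBOP. Chromosome 16, 31651669 to 31652628, the lower region of lowest p, was at 4.81 and 5.14 in vehicle and 4.75 and 5.48 after TCPOBOP at 3 h, so that its decrease was measured at 27 h and not at 3 h. At chromosome 17, 31397993 to 31398788 the change was 0.70 ± 0.18 at 3 h (limma adjusted p = 0.0578, not called) and −0.71 ± 0.18 at 27 h (limma adjusted p = 0.0327). The vehicle pools there were at 2.44 and 2.57 at 3 h and at 4.07 and 4.02 at 27 h. The TCPOBOP pools were at 4.42 and 3.745 at 3 h and at 2.50 and 2.45 at 27 h. The vehicle levels thus differed between the experiments too. When any 1 male 27 h pool was left out, 0 or 1 regions passed this test.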

How the data were processed

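Per the file headers, the authors ran MACS 2.1.0.20150731 on every pool separately, without a control, keeping all duplicates, shifting tags by 100 bp, extending them to 200 bp and calling at a q-value of 0.05. Reads of 50 bp had been aligned with Bowtie to mm9, per the submitters' processing notes, and only the first read of the 27 h libraries was used, per the labels. The deposited pileup is a signal that the authors did not scale to depth. Fold enrichment, also deposited, is the ratio of pileup to a local background, and −log10 p and −log10 q are likewise the authors' values for each peak, per the file headers. In the 4 lists 522 to 552 peak numbers were absent; which filter removed them is not stated there.

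Peaks of 16 lists overlapping by at least 1 bp were merged. The highest pileup per region and pool was divided by the total tags per 1000000, log2 transformed with no pseudocount and median centred over regions called in all 16 pools. Groups were fitted in limma 3.58.1 (R 4.3.3) with a mean trend over all 16 libraries and Benjamini-Hochberg adjustment over autosomal regions with a peak in all pools compared. Tables were made in Python 3.11.15, and the fit was tested on simulated data. Named regions are the 15 higher and 10 lower of lowest p, the 8 gained and 4 lost of highest −log10 q, 3 on each side of the threshold, the 5 of highest mean and the 5 longest stretches by members. The comparison, the rules and the lists were chosen with earlier results of these data known. Planned gene lists, cell markers and motifs were not analysed, for want of an mm9 annotation and genome. Equal pool numbers were not shown to pair pools, since same-numbered deviations correlated at 0.057. Where a pool is left out, the lone pool of its group is assumed to vary like the other groups. Errors given are standard errors of the fit and cover the spread between pools.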

Additional observations from a re-analysis of the deposited data

Results flagged for a closer look

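Responses that differed between experiments by limma's test of the difference were found at 10 regions. Male minus female log2 changes at 27 h were −2.19 at chromosome 12, 63870068 to 63871129 and −3.13 at chromosome 12, 64118600 to 64119481. Log2 changes in males at 27 h minus those at 3 h were 1.96 at chromosome 5, 129084925 to 129086402, 1.82 at chromosome 8, 124241810 to 124242819, 1.51 at chromosome 6, 51341522 to 51342549 and 1.96 at chromosome 9, 51064650 to 51065488. They were −1.41 at chromosome 17, 31397993 to 31398788, −1.38 at chromosome 16, 31651669 to 31652628, −1.73 at chromosome 1, 72772092 to 72773160 and −1.59 at chromosome 3, 36394042 to 36394779. Chromosome X was outside the comparison, and 7 of its 625 regions tested were higher after TCPOBOP and 0 lower, among them 99139931 to 99140923 (log2 1.66 ± 0.28) and 99147867 to 99149929 (log2 1.78 ± 0.32), which lie close together. On chromosome Y 59 regions were tested and 0 called.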

How the results depend on the processing

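The 550 higher and 126 lower regions became 1011 and 446 with the spread taken from the 4 libraries alone, 56 and 8 with fold enrichment, 300 and 49 among regions above the median level, and 221 to 299 and 23 to 53 without 1 pool, which leaves fewer samples. Lower regions numbered 47 without centring and 82 without a mean trend. With the pool number as a replicate block, 586 and 171 were called and the lower regions shared with females rose from 47 to 72; differences from 3 h numbered 10, and 1 region, chromosome 12, 64118600 to 64119481, was called in opposite directions in males (log2 −1.03) and females (2.09). Higher regions shared with females numbered 130 to 151 without 1 pool, and lower ones 8 to 12; the lower ones were 11 without centring, 20 without a trend and 29 above the median level, and fold enrichment left 4 higher and 2 lower. Differences from 3 h (8) numbered 0 without centring, 0 without a trend, 0 in fold enrichment and 0 to 1 without 1 pool. Those from females (2) numbered 1 without a trend, 0 in fold enrichment, 5 with peaks merged over the 4 lists and 1 to 2 without 1 pool, where 1 of the 2 called without TCPOBOP pool 1 was another region. Settings other than centring, trend, block and left-out pools were added for shared calls and differences after the data were seen. Gained and lost regions were 67 and 2 among the 20000 strongest peaks. They were 1829 to 4830 and 1651 to 4178 without 1 pool, where the rule is looser because its group has 1 pool. Of the 10 named lower regions 1 stayed called in fold enrichment and 6 to 8 without 1 pool. In fold enrichment the log2 changes of chromosome 7, 26672712 and 26679889 were −0.041 and −0.63. Causes were not tested.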
